A study of Cricetulus griseus with 24 samples.

Results

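Collagen genes were followed across 6 groups of cultured phagocytes. They were taken as all gene names that consist of Col, digits, a and digits, and a gene was kept where its mean was at least 0.5 CPM (counts scaled to library size over named genes) in at least 1 group. Of 26776 gene names in the count tables, 38 carried such a name and 16 were kept. RNA-seq was done on LR73 cells, a fibroblast-like Chinese hamster line that takes up apoptotic cells, in 2 experiments of 16 and 8 libraries. The first experiment had 4 groups of 4 biological replicates each, and none of them is given a genetic change in the labels. These were phagocytes alone (control), phagocytes treated with cytochalasin D, phagocytes co-cultured with apoptotic Jurkat cells, and phagocytes given both. Cytochalasin D caps actin filaments, so that treated phagocytes cannot engulf. Jurkat is a human T lymphoma line, made apoptotic with 1500 mJ of ultraviolet C light and 4 h of further culture. The second experiment had 4 libraries of wildtype and 4 of Slc12a2-deficient LR73 cells. Both of its groups were co-cultured with apoptotic Jurkat cells for 2 h and sorted for CypHer5E, an acid-activated dye carried by engulfed targets, so these libraries come from cells sorted as engulfing. The sources used here do not say how the Slc12a2 deficiency was made, whether the deficient line is a single clone, or how long co-culture lasted in the first experiment.

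Collagens are secreted proteins built of 3 chains wound into a triple helix. Chains are hydroxylated and folded in the endoplasmic reticulum, exported in large carriers, trimmed and cross-linked outside the cell, and bound there by integrins and other receptors. Fibril-forming collagens make the tensile fibrils of connective tissue, fibril-associated collagens decorate their surface, and the rest build networks, anchoring structures, basement membranes or beaded filaments. Type VI collagen forms the beaded filaments, which lie close around fibroblasts and many other cells, and its usual molecule joins one chain each from Col6a1, Col6a2 and Col6a3. Fibroblasts are the main collagen producers of connective tissue.

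Libraries held 8272232 to 18911353 counted fragments in the first experiment and 22758587 to 28450594 in the second. A count of 3 corresponded to 0.159 to 0.363 CPM and to 0.105 to 0.132 CPM, respectively. Slc12a2, which encodes a sodium, potassium and chloride cotransporter, was at 91.3 to 103 CPM in wildtype and 22.5 to 26.2 CPM in deficient libraries. The direction is what the labels call for, though the transcript was not lost. In the first experiment it was at 44.9 to 53.02 CPM in control and 43.7 to 51.9 CPM with apoptotic cells. With cytochalasin D it was at 22.9 to 36.2 CPM, and with both agents at 36.1 to 42.4 CPM. Of 12 fibroblast markers, 6 reached 0.5 CPM in control cells (Vim, Pdgfra, Pdgfrb, S100a4, Dcn and Col3a1), while Thy1, Fap, Lum, Fbln1 and both type I collagen chains stayed below it. Some T lymphocyte markers were higher in the unsorted co-cultures than in control, and whether their reads came from apoptotic cells was not tested. Of 17 T lymphocyte markers named in the files, 8 reached 0.5 CPM with apoptotic cells and 7 with both agents, against 4 in control, while Cd3g, Cd2 and Cd5 stayed at 0. The 12 T lymphocyte markers other than Ptprc that stayed under 0.5 CPM in control cells were a subset picked after their levels were seen. They summed to 7.70 to 11.8 CPM with apoptotic cells and to 7.97 to 11.2 CPM with apoptotic cells and cytochalasin D. Their sum was at most 0.283 CPM in every other group, sorted cells included. Within that subset, Zap70, Lck and Lef1 were the highest with apoptotic cells, at 3.35, 3.20 and 1.68 CPM. Control library 4, cytochalasin D library 1 and library 4 of the combined treatment stood apart on the third principal component, and results that turn on them are given with and without them.

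Among the collagen names counted, the transcripts of LR73 cells were led by type VI. Levels of different genes are compared as CPM per kilobase of exon. Over all 24 libraries, Col6a1 stood at 103.9 and Col6a2 at 71.4 CPM per kilobase. Col7a1, the chain of the anchoring fibrils under epithelia, followed at 45.2, and Col5a2, a type V chain that helps to set fibril diameter, at 30.9 CPM per kilobase. Col16a1 (13.7), Col12a1 (12.8) and Col27a1 (11.1 CPM per kilobase) came next. Col16a1 and Col12a1 are fibril-associated collagens, and Col27a1 is a fibril-forming collagen known from cartilage. Col8a1, a short network-forming chain, stood at 4.27, Col18a1, a basement membrane proteoglycan and the source of endostatin, at 2.83, and Col17a1, a transmembrane collagen of hemidesmosomes, at 1.71 CPM per kilobase. The other 6 genes lay between 0.0681 and 0.2395 CPM per kilobase. They were Col11a2, Col9a1, Col3a1, Col5a3, Col6a3 and Col4a1. In the control libraries, the ranges of neighbours in the order overlapped for Col16a1 and Col12a1 and for each step from Col5a3 down through Col3a1, Col9a1, Col6a3 and Col4a1, so the order within those runs was not resolved.

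**Figure D1:**
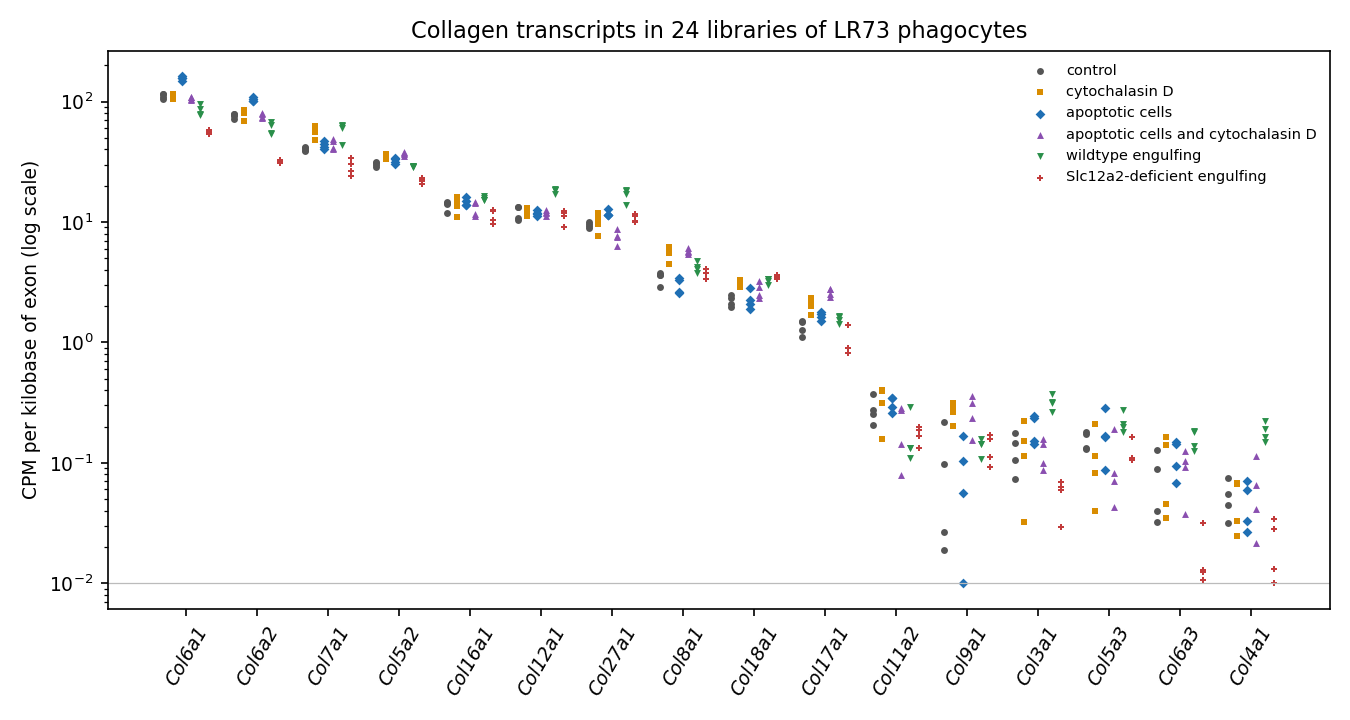
CPM per kilobase of exon (log scale) of the 16 collagen genes in each of the 24 libraries, coloured by group; values of 0 are drawn on the grey line at 0.01. 10 genes lie above 0.5 CPM per kilobase in every library and 6 lie below it in every library, and the deficient libraries (red) are the lowest for Col6a1, Col6a2, Col7a1 and Col5a2.

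Some chains common in connective tissue were nearly absent. Col1a1 and Col1a2, which encode the main fibrillar collagen of connective tissue, held 23 and 28 counts over all 24 libraries together. Col4a2, the usual partner of Col4a1 in basement membranes, held 14 counts. The type V chain Col5a1 is not among the gene names in the count tables, so its level is unknown. Col6a3 was at a per-kilobase ratio of 0.000656 to Col6a1 in control cells, so the third usual chain of type VI was close to undetected beside both others. Of the 22 gene names that were not kept, 3 had no count at all (Col13a1, Col22a1 and Col26a1). At the threshold, Col9a1 was the last gene inside, with a highest group mean of 0.727 CPM, and Col6a6 the first outside, with 0.331 CPM. Of the 16 genes, 12 passed in all 6 groups. Col3a1 and Col6a3 passed in 5 groups, missing in the deficient cells, Col9a1 passed in both cytochalasin D groups only, and Col4a1 passed in wildtype engulfing cells only. For testing, 15 of the 16 passed the low count filter in the first experiment (all but Col4a1) and all 16 passed in the second. A gene that passes through its high groups alone has to differ between groups, so the entry of Col4a1 and Col9a1 is not itself a result.

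The first comparison asks what the presence of apoptotic cells does to collagen transcripts in phagocytes. Type VI chains were higher with apoptotic cells. Col6a1 was at 425, 461, 441 and 462 CPM in the control libraries and at 633, 597, 654 and 631 CPM with apoptotic cells. Every library with apoptotic cells lay above every control library, and the rise was 1.41-fold, from 447 ± 17.8 to 629 ± 23.9 CPM (SD, n = 4; log2 0.49 with SE 0.04, edgeR adjusted p = 2.92e-08). Col6a2 was at 301, 336, 330.2 and 322 CPM in control and 443, 427, 461 and 426 CPM with apoptotic cells, again without overlap. It rose 1.36-fold (log2 0.45 with SE 0.05, edgeR adjusted p = 4.97e-06). Col27a1 was at 50.2, 52.2, 55.7 and 54.1 CPM in control and 64.2, 64.1, 72.4 and 64.7 CPM with apoptotic cells. Its groups did not overlap either, and it rose 1.25-fold (log2 0.33 with SE 0.10, edgeR adjusted p = 0.0281), but the edgeR adjusted p rose above 0.05 when control library 1, 2 or 4 or apoptotic library 3 or 4 was left out, at 0.0841, 0.06, 0.0515, 0.103 and 0.054 in that order, with log2 changes of 0.28 to 0.34.

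These 3 were the rises among 15 collagens tested, where 13.7% of all genes tested were called, 6.97% higher and 6.68% lower. They were also the 3 collagens whose groups did not overlap, a pattern found in 19.6% of all genes. No collagen was called lower by edgeR, DESeq2 or limma-voom, and 0 were lower at an unadjusted p under 0.05. The median log2 change of the 15 collagens was 0.17, against 0.00 for all genes. The other abundant collagens did not pass the test. Col7a1 was at 366, 373, 398 and 387 CPM in control and 421, 397, 446 and 379 CPM with apoptotic cells (log2 0.11 with SE 0.07, edgeR adjusted p = 0.319). Col5a2 was at 161, 174, 168 and 177 CPM in control and 172, 178, 192 and 187 CPM with apoptotic cells (log2 0.10 with SE 0.04, edgeR adjusted p = 0.126). Col12a1 was at 106, 137, 109.9 and 137 CPM in control and 115, 129, 122 and 119.5 CPM with apoptotic cells (log2 -0.01 with SE 0.07, edgeR adjusted p = 0.941). In each of these 3 the ranges of both groups overlapped. Col16a1 was at 62.6, 76.6, 75.01 and 77.8 CPM in control and 72.9, 78.5, 84.6 and 73.4 CPM with apoptotic cells (log2 0.09 with SE 0.10, edgeR adjusted p = 0.612), also with overlap. Col8a1, Col17a1 and Col18a1, whose library values follow below with the drug, did not pass either, at log2 -0.22, 0.30 and 0.03 (edgeR adjusted p = 0.196, 0.113 and 0.926). The summed level of all 16 collagens went from 1612 ± 67.2 to 1968 ± 75.1 CPM (SD, n = 4), and type VI chains made up 47.8% of it in control cells and 54.3% with apoptotic cells. In bulk RNA, a change in the number of cells that express a gene and a change in RNA per cell cannot be told apart.

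The same comparison under cytochalasin D showed no such rise in type VI chains. Col6a1 was at 424, 450.2, 465 and 424 CPM with cytochalasin D alone and 441, 424, 412 and 440.1 CPM with both agents. These ranges overlapped (log2 -0.04 with SE 0.04, edgeR adjusted p = 0.643, interval -0.13 to 0.05). Col6a2 was at 359.6, 353, 339 and 293 CPM with cytochalasin D and 343, 331, 309.8 and 317 CPM with both (log2 -0.05 with SE 0.05, edgeR adjusted p = 0.666, interval -0.16 to 0.07). The intervals are 95% and exclude the rise measured without the drug. The interaction of apoptotic cells with the drug, which tests whether their effect differed under it, was log2 -0.53 for Col6a1 (SE 0.06, edgeR adjusted p = 8.55e-06) and -0.49 for Col6a2 (SE 0.08, edgeR adjusted p = 0.000452). The 17 T lymphocyte markers named in the files summed to 45.9 to 52.6 CPM in control, 44.1 to 48.8 CPM with the drug, 51.7 to 57.8 CPM with apoptotic cells and 51.5 to 59.1 CPM with both. Whether apoptotic cell RNA contributed to the type VI values was not tested.

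Col27a1 and Col7a1 were lower with both agents than with the drug alone. Col27a1 was at 66.4, 60.3, 53.7 and 42.6 CPM with cytochalasin D and 42.5, 48.95, 42.8 and 35.7 CPM with both agents. The groups overlapped, and it fell by 0.39 on the log2 scale (SE 0.10, edgeR adjusted p = 0.0158). That call was lost without cytochalasin D library 1 (edgeR adjusted p = 0.0718), cytochalasin D library 2 (0.0677), library 4 of the combined treatment (0.0729) or the 3 libraries that stood apart (0.2, with a log2 change of -0.23). Col7a1 was at 594, 554, 531 and 453 CPM with cytochalasin D and 444, 459, 383 and 385 CPM with both, likewise with overlap, and it fell by 0.35 (SE 0.07, edgeR adjusted p = 0.00166). These were the 2 collagens called of 15, against 8.61% of all genes called, 3.79% lower and 4.82% higher, and the median log2 change was -0.07 for collagens and -0.01 for all genes. No collagen was called higher by edgeR or DESeq2, 1 was higher at an unadjusted p under 0.05, and limma-voom called that 1 higher (adjusted p = 0.0456). It was Col17a1, called as well without cytochalasin D library 1 (log2 0.42, edgeR adjusted p = 0.0468), and it was the sole collagen whose groups did not overlap here (background 13.5%). The interaction was log2 -0.72 for Col27a1 (SE 0.14, edgeR adjusted p = 0.00537) and -0.46 for Col7a1 (SE 0.10, edgeR adjusted p = 0.00949). Without the 3 libraries that stood apart, the Col7a1 interaction was -0.37 at an edgeR adjusted p of 0.066. In all, 4 of 15 collagens had a lower effect under the drug, where 4.56% of all genes were called, 1.53% lower and 3.03% higher. No collagen had a higher effect by edgeR, DESeq2 or limma-voom, with 0 at an unadjusted p under 0.05. The median interaction was -0.28 for collagens and -0.02 for all genes.

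**Figure D2:**
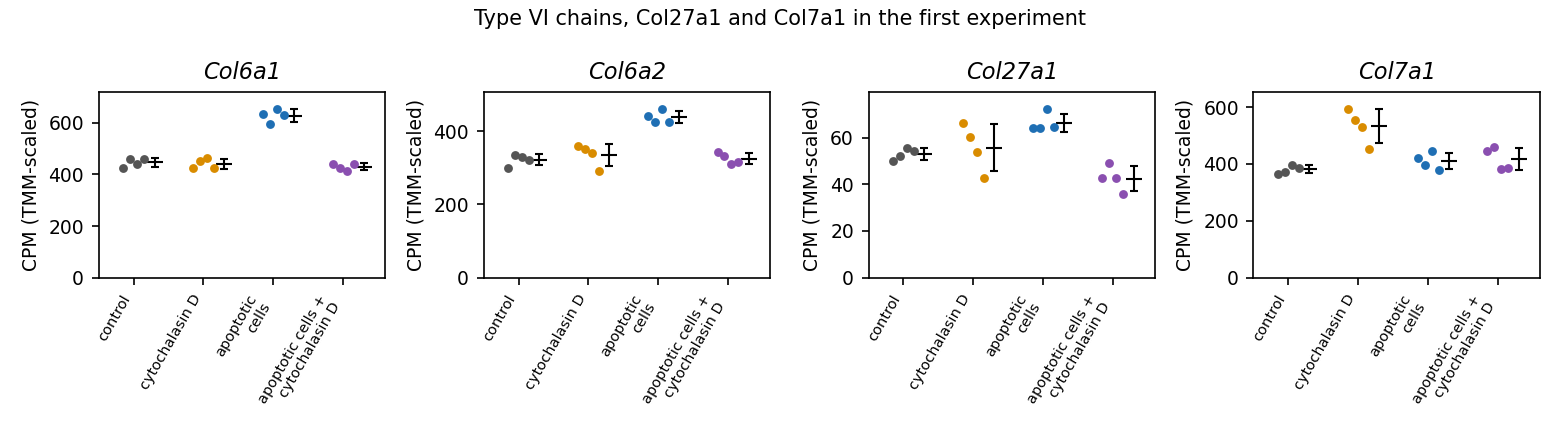
CPM of Col6a1, Col6a2, Col27a1 and Col7a1 in each library of the first experiment (points), with mean ± SD of 4 libraries beside them (black). For Col6a1 and Col6a2 all 4 apoptotic cell libraries lie above every other library, Col27a1 has its lowest mean with both agents, and Col7a1 its highest mean with cytochalasin D alone.

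Cytochalasin D alone, set against control, gives the effect of the drug itself. Col8a1, Col17a1, Col7a1, Col18a1 and Col5a2 rose. Col8a1 was at 20.7, 21.7, 21.01 and 16.7 CPM in control and 25.7, 34.5, 35.9 and 31.7 CPM with the drug, without overlap. It rose 1.59-fold (log2 0.67 with SE 0.11, edgeR adjusted p = 4.93e-05). Col17a1 was at 7.68, 6.67, 5.84 and 7.84 CPM in control and 12.2, 11.5, 10.5 and 8.84 CPM with the drug, a rise of 1.53-fold (log2 0.61 with SE 0.12, edgeR adjusted p = 0.000632). Every treated library lay above every control library, as for the next 3 genes. Col7a1 rose 1.40-fold from 381 ± 14.3 to 533 ± 59.3 CPM, with library values given above (log2 0.48 with SE 0.07, edgeR adjusted p = 8.57e-06). Col18a1 was at 10.1, 10.7, 11.8 and 12.6 CPM in control and 16.9, 16.03, 15.4 and 14.6 CPM with the drug (log2 0.48 with SE 0.12, edgeR adjusted p = 0.00459). Col5a2 was at 208, 199.5, 202 and 188 CPM with the drug (log2 0.23 with SE 0.04, edgeR adjusted p = 0.000321), a rise of 1.18-fold. Without Col9a1, whose entry rested on both groups given the drug, 5 of 14 collagens were called higher, where 26.3% of all genes were called, 13.5% higher and 12.8% lower, and the median log2 change was 0.15 for collagens and 0.01 for all genes. The same 5 had groups that did not overlap (background 24.3%). No collagen was called lower by edgeR, DESeq2 or limma-voom, with 0 at an unadjusted p under 0.05. Both abundant type VI chains stayed near control, with log2 changes of -0.02 (interval -0.11 to 0.07) for Col6a1 and 0.06 (interval -0.06 to 0.18) for Col6a2, although Col6a2 was called higher without cytochalasin D library 4 (log2 0.12, edgeR adjusted p = 0.0452). Col9a1, at 1, 10, 1 and 3 counts in control and 7, 10, 11 and 14 counts with the drug, did not pass (log2 1.54 with SE 0.61, edgeR adjusted p = 0.0673), but passed without control library 2 (edgeR adjusted p = 0.011) or apoptotic cell library 4 (0.0449). The fibril-associated Col12a1, at 115, 116, 122 and 135 CPM, and Col16a1, at 85.1, 71.97, 76.2 and 58.4 CPM, each overlapped control (log2 -0.004 and -0.001).

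In the presence of apoptotic cells, cytochalasin D was compared between 2 other groups, which share no library with the drug comparison above. Col8a1 was at 14.9, 14.9, 18.9 and 19.8 CPM with apoptotic cells and 31.4, 33, 32.2 and 35.01 CPM with both agents. It was 1.91-fold higher with the drug (log2 0.93 with SE 0.11, edgeR adjusted p = 5.56e-07). Col17a1 was at 9.33, 9.07, 7.79 and 8.52 CPM with apoptotic cells and 13.3, 12.5, 14.4 and 14.5 CPM with both, and was 1.58-fold higher (log2 0.66 with SE 0.12, edgeR adjusted p = 0.000158). Col5a2 reached 215, 211, 201 and 205 CPM with both agents (log2 0.19 with SE 0.04, edgeR adjusted p = 0.00197). None of the 3 overlapped, and Col8a1, Col17a1 and Col5a2 thus passed with the drug in both comparisons. Col18a1 was at 14.4, 11.4, 10.6 and 9.57 CPM with apoptotic cells and 14.6, 16.4, 12.7 and 11.9 CPM with both, overlapped, and did not pass (log2 0.28 with SE 0.12, edgeR adjusted p = 0.0958). It passed without apoptotic cell library 1 (log2 0.39, edgeR adjusted p = 0.0187). Col7a1 differed by log2 0.02 (interval -0.13 to 0.17) between these groups.

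Lower with the drug in co-culture were Col6a1, Col6a2 and Col27a1, whose library values are given above. Col6a1 fell by 0.55 on the log2 scale (SE 0.04, edgeR adjusted p = 2.21e-10) and Col6a2 by 0.43 (SE 0.05, edgeR adjusted p = 9.18e-07). Col27a1 fell by 0.65 (SE 0.10, edgeR adjusted p = 2.28e-05), from 66.3 ± 4.04 to 42.5 ± 5.41 CPM. These values share the apoptotic cell libraries with the comparison against control. Col9a1, a low fibril-associated chain, held 2, 4, 8 and 0 counts with apoptotic cells and 12, 7, 14 and 5 counts with both agents. It sat on the threshold (log2 1.63, SE 0.63, edgeR adjusted p = 0.05 after rounding), and its groups overlapped. The call was lost in 14 of 23 alternatives. Among them were the loss of control library 3 or 4, of any cytochalasin D library, of apoptotic cell library 1, 2 or 4 and of library 1, 2 or 3 of the combined treatment, with edgeR adjusted p from 0.0512 to 0.147. Col9a1 was kept through both cytochalasin D groups alone, so a higher value with the drug was built into its entry. Of the 14 other collagens, 3 were higher and 3 lower in this comparison, where 32.5% of all genes were called, 16.4% higher and 16.1% lower, and 6 had groups that did not overlap, against 32.1%. Col16a1, at 76.7, 78.2, 61.8 and 59.6 CPM with both agents, and Col12a1, at 114, 129, 125 and 121 CPM, overlapped the libraries with apoptotic cells alone. The median log2 change was -0.25 for those 14 collagens and -0.002 for all genes.

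**Figure D3:**
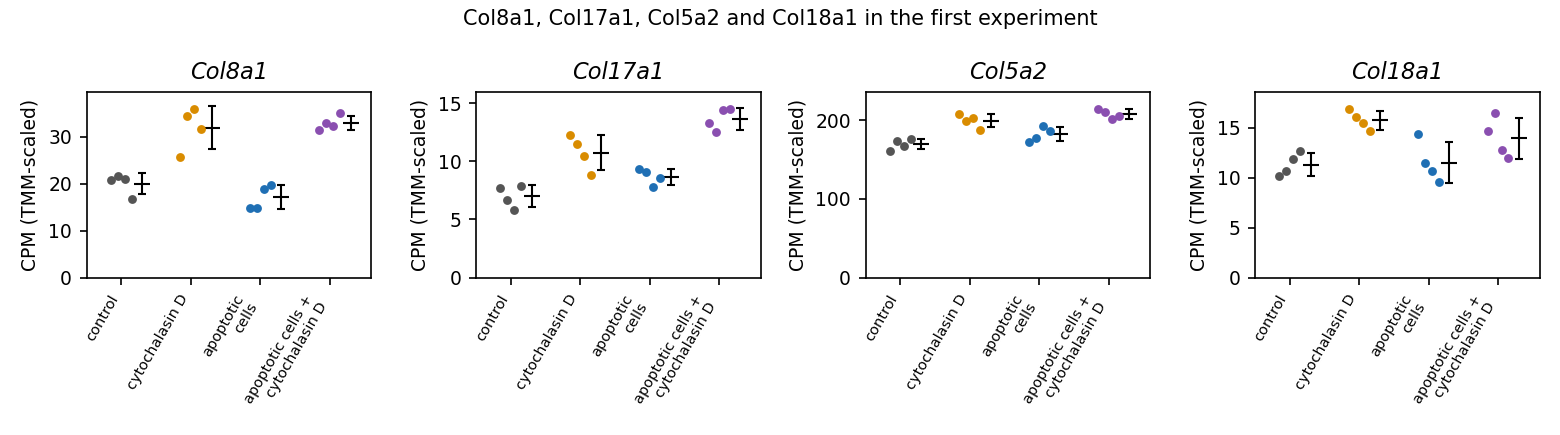
CPM of Col8a1, Col17a1, Col5a2 and Col18a1 in each library of the first experiment (points), with mean ± SD of 4 libraries (black). For Col8a1 all 8 libraries with cytochalasin D lie above all 8 without it. Col17a1 and Col5a2 overlap between the drug alone and apoptotic cells alone, and Col18a1 overlaps between both co-cultures.

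The low collagens of the first experiment gave no call other than that of Col9a1. Group means over the 4 groups ran from 1.05 to 1.71 CPM for Col11a2, a fibril-forming chain of cartilage. Col3a1, the fibrillar chain that often runs with type I, lay between 0.5995 and 0.963 CPM. Over all the low collagens tested, standard errors of log2 changes were between 0.34 (Col11a2) and 0.74 (Col9a1) for apoptotic cells against control. Changes of the size seen in Col6a1 would thus not have been detectable in them at this depth.

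The second experiment asks how Slc12a2-deficient engulfing cells differ from wildtype ones. Most collagens were lower in the deficient than in the wildtype cells of this experiment. Relative to the apoptotic cell group of the first experiment, scaled separately and not tested against these, the genotype further away varied by gene. Col12a1 had means of 121 CPM in that group, 187 CPM in wildtype and 115 CPM in deficient cells. In the same order Col27a1 was at 66.3, 94.7 and 60.6 CPM. Col6a1 was at 629, 338 and 223 CPM and Col6a2 at 439, 254 and 134 CPM, with deficient cells further away. Col4a1 was kept through its wildtype level alone, so its difference was built into the choice of genes. Of the 15 other collagens, 11 were called lower, where 42.5% of all genes were called, 21.3% lower and 21.1% higher. With Col4a1 they were 12 of 16. Col3a1 and Col6a3, among the 11, passed the low count filter of this experiment through their wildtype libraries alone. A lower deficient level was thus built into their being tested. None was called higher by edgeR, DESeq2 or limma-voom, with 0 higher at an unadjusted p under 0.05. Without Col4a1, the groups did not overlap for 12 collagens (background 39.6%), which are the 11 called and Col18a1. The summed level fell from 1715 ± 152 to 1033 ± 38.3 CPM (SD, n = 4), without overlap.

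Both abundant type VI chains were lower, and type VI made up 34.6 ± 2.41% of collagen CPM in wildtype and 34.6 ± 2.001% in deficient cells (SD, n = 4). Col6a2 was at 231, 226, 272 and 287 CPM in wildtype and 130.2, 138, 134 and 133 CPM in deficient libraries, 1.90-fold lower (log2 -0.92 with SE 0.07, edgeR adjusted p = 2.89e-08). Col6a1 was at 308, 315, 348 and 382 CPM in wildtype and 216, 218, 233 and 226 CPM in deficient libraries, 1.52-fold lower (log2 -0.60 with SE 0.06, edgeR adjusted p = 1.19e-06). The fitted decline was larger for Col6a2, and the per-kilobase ratio of Col6a1 to Col6a2 was 1.35 to 1.47 in wildtype and 1.66 to 1.82 in deficient libraries. That ratio had group means of 1.46, 1.39, 1.51 and 1.39 in control, cytochalasin D, apoptotic cell and combined groups of the first experiment. Col6a3 held 22, 22, 34 and 31 counts in wildtype and 2, 2, 6 and 2 counts in deficient libraries. Its log2 change of -3.14 (SE 0.34, edgeR adjusted p = 2.43e-06) therefore rests on few deficient counts.

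Anchoring, fibril-forming and fibril-associated chains were lower too, as was the transmembrane Col17a1. Col7a1 was at 407, 597, 593 and 563 CPM in wildtype and 284, 323, 226 and 250.4 CPM in deficient libraries, 2.00-fold lower (log2 -0.996 with SE 0.11, edgeR adjusted p = 4.37e-06). Wildtype library 1 was the lowest of its group and still lay above all 4 deficient libraries. Col12a1 was at 175, 192, 188 and 191 CPM in wildtype and 128, 93.7, 115 and 123 CPM in deficient libraries (log2 -0.70 with SE 0.07, edgeR adjusted p = 1.82e-06). Col27a1 was at 77.03, 95.1, 102 and 104 CPM in wildtype and 57.7, 56.3, 63.6 and 64.9 CPM in deficient libraries (log2 -0.64 with SE 0.08, edgeR adjusted p = 1.18e-05). Neither overlapped between genotypes, nor did the next 3 genes. Col16a1 was at 80.9, 83.5, 80.7 and 87.3 CPM in wildtype and 65.1, 66.4, 55.3 and 50.8 CPM in deficient libraries (log2 -0.48 with SE 0.07, edgeR adjusted p = 6.85e-05). Col5a2 was at 163, 164, 161 and 164 CPM in wildtype and 132, 127, 123 and 117 CPM in deficient libraries (log2 -0.39 with SE 0.04, edgeR adjusted p = 4.79e-06). Col17a1 was at 7.42, 8.602, 8.07 and 8.54 CPM in wildtype and 4.72, 7.22, 4.67 and 4.26 CPM in deficient libraries (log2 -0.63 with SE 0.14, edgeR adjusted p = 0.0018), with deficient library 2 above its group.

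The 3 largest log2 changes were those of the scarce chains Col4a1, Col6a3 and Col3a1. All 3 passed the low count filter through wildtype libraries alone, so the direction of these changes was built in. Col3a1 held 33, 36, 49 and 40 counts in wildtype and 8, 8, 4 and 7 counts in deficient libraries, 5.79-fold lower (log2 -2.53 with SE 0.26, edgeR adjusted p = 1.18e-06). Col4a1, the basement membrane chain, held 37, 29, 26 and 27 counts in wildtype and 2, 5, 0 and 5 counts in deficient libraries (log2 -3.27 with SE 0.41, edgeR adjusted p = 1.03e-05). As given above, its entry rested on the wildtype level. Col5a3, a type V chain, held 32, 38, 29 and 30 counts in wildtype and 15, 18, 18 and 22 counts in deficient libraries (log2 -0.83 with SE 0.22, edgeR adjusted p = 0.00696). Groups did not overlap in CPM for any of these 3 genes.

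The other 4 collagens did not pass between genotypes. Col8a1 was at 24.3, 27.1, 21.6 and 23.6 CPM in wildtype and 23.5, 21.8, 19.4 and 19.2 CPM in deficient libraries (log2 -0.20 with SE 0.08, edgeR adjusted p = 0.0609). It was called lower with a block on library number, which joins libraries 1 and 2 and libraries 3 and 4 of both genotypes (log2 -0.20, edgeR adjusted p = 0.0102) and without wildtype library 3 (0.0311) or deficient library 1 (0.0263). Col18a1 was at 17.03, 17.1, 15.4 and 16.6 CPM in wildtype and 17.4, 17.7, 18.6 and 17.1 CPM in deficient libraries, with the lowest deficient library at 17.14 and the highest wildtype library at 17.12 CPM (log2 0.10 with SE 0.07, edgeR adjusted p = 0.225, interval -0.06 to 0.26). Col11a2 (log2 0.07, interval -0.63 to 0.78) and Col9a1 (log2 -0.02, interval -0.77 to 0.74) were too scarce to bound their change closely. The median log2 change was -0.63 for the 15 collagens other than Col4a1 and -0.002 for all genes tested.

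**Figure D4:**
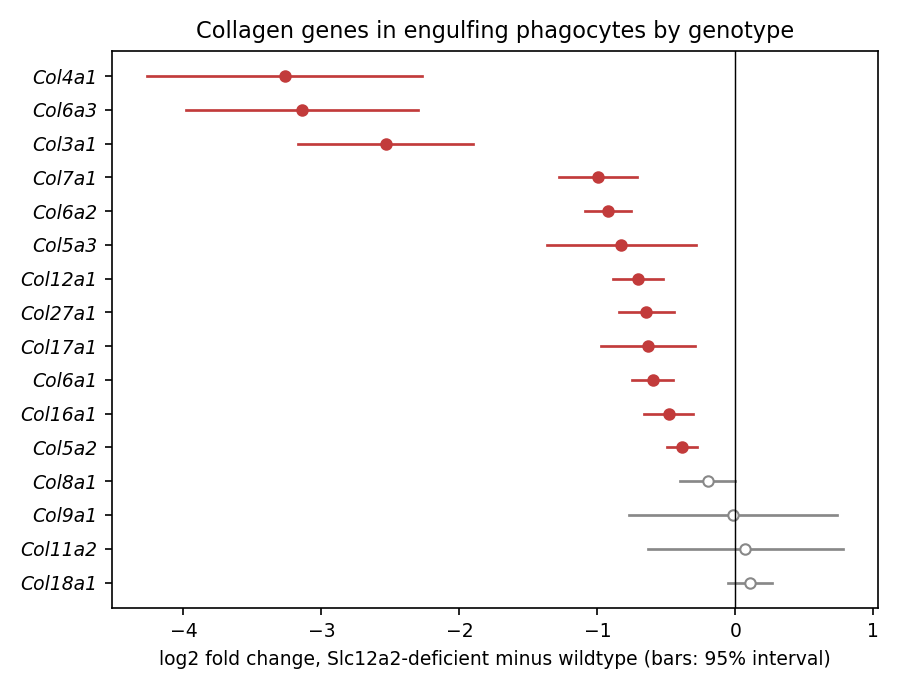
Log2 fold changes of the 16 collagen genes, Slc12a2-deficient minus wildtype engulfing cells, with 95% intervals. Filled red points are the 12 genes with an edgeR adjusted p under 0.05, all left of 0, and open grey points are the 4 others.

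Genes that modify, export, cross-link, bind or degrade collagen were followed in the same fits. The 7 lists also hold basement membrane laminins and the transcription factor Creb3l1. From them, 61 genes were tested in each experiment, though not all the same ones. Receptors tested were 6 in the first experiment and 7 in the second, and proteases 4 and 3. With apoptotic cells, 5 were higher and 3 lower than in control, in all 13.1% of the 61, where 13.7% of all genes were called, 6.97% higher and 6.68% lower. This share lies near that of all genes. Leprel4, of the prolyl 3-hydroxylase family, rose from 22.1 ± 1.15 to 28.2 ± 2.59 CPM (log2 0.36, edgeR adjusted p = 0.00411), and the fibrillar collagen receptor Ddr2 fell from 249 ± 7.33 to 218 ± 10.9 CPM (log2 -0.19, edgeR adjusted p = 0.00686). These were the 2 of 8 calls that were kept in every alternative. The other 6, Leprel1 (log2 0.16), Loxl1 (0.32), Mmp14 (0.19), Postn (0.17), Tfg (-0.20) and Lamb1 (-0.14), were each lost without at least 1 library. Median log2 changes of the 7 lists lay between -0.08 (laminins) and 0.03 (processing in the endoplasmic reticulum).

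Under cytochalasin D alone, 12 of the 61 genes (19.7%) were higher and 11 (18%) lower, where 26.3% of all genes were called, 13.5% higher and 12.8% lower. Of these 23 calls, 17 were kept in every alternative and 6 were lost in at least 1. Among genes acting on procollagen outside the cell, 4 of 8 were lower (median log2 -0.07), led by Loxl4, another lysyl oxidase, from 247 ± 16.2 to 184 ± 18.4 CPM (log2 -0.43, edgeR adjusted p = 1.05e-05). Pcolce and Pcolce2, enhancers of procollagen trimming, were among them (log2 -0.19 and -0.16), Pcolce2 not without cytochalasin D library 3 (edgeR adjusted p = 0.0511). Proteases went the other way, with 3 of 4 higher (median 0.71). Mmp14 rose from 80.9 ± 3.53 to 124 ± 6.17 CPM (log2 0.61, edgeR adjusted p = 4.99e-09), and the gelatinase Mmp9 from 71.3 ± 5.41 to 104 ± 10.5 CPM (log2 0.54, edgeR adjusted p = 3.16e-06). Mmp2, the other gelatinase, rose from a low 0.388 ± 0.473 to 1.87 ± 0.427 CPM (edgeR adjusted p = 0.00148). It passed the low count filter through the groups given the drug, so a higher value with the drug was built into its being tested. The protease count and median include it. In the endoplasmic reticulum, 4 of 17 were higher and 4 lower, with the prolyl hydroxylase subunit P4ha2 up (log2 0.43) and Creb3l1, a membrane-bound transcription factor known to act on collagen genes in mouse bone, down (log2 -0.38, edgeR adjusted p = 6.82e-06). Among receptors, 3 of 6 were higher, Gpr56, Cspg4 and Itgb1 (log2 0.48, 0.27 and 0.18). Among laminins, Lama1 was higher, from 0.163 ± 0.107 to 1.65 ± 0.644 CPM, and Lama3 was lower (log2 -0.52). Lama1, like Mmp2, passed the low count filter through the groups given the drug, so its rise is no support.

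In co-cultures, 12 of the 61 genes (19.7%) were higher with the drug and 16 (26.2%) lower, where 32.5% of all genes were called, 16.4% higher and 16.1% lower. The share higher lies near that of all genes. Loxl4 was lower (log2 -0.74, edgeR adjusted p = 2.86e-09), and so was Creb3l1 (log2 -0.49, edgeR adjusted p = 1.51e-07). Serpinh1, the collagen chaperone HSP47, fell from 1122 ± 41.1 to 890.4 ± 13.1 CPM (log2 -0.33, edgeR adjusted p = 4.54e-07), and it was at 1068 ± 48.03 CPM in control and 964 ± 48.95 CPM with the drug alone. In this comparison 6 of 17 genes of the endoplasmic reticulum list were lower and 2 higher, 4 of 8 laminins lower and 1 higher, and 4 of 6 receptors higher and 1 lower. Mmp2, Mmp9 and Mmp14 were again the 3 of 4 proteases that were higher (log2 2.07, 0.35 and 0.35). For Mmp2, tested through the groups given the drug, the direction was built in. Between the co-culture with the drug and the drug alone, 4 of 61 (6.56%) were higher, near the 4.82% of all genes, and 8 (13.1%) lower, against 3.79%. Loxl4 was among the lower ones (log2 -0.32, edgeR adjusted p = 0.00207), beside Lama3 (-0.52) and Lama5 (-0.37). Without the 3 libraries that stood apart, Lama3 and Lama5 did not pass (edgeR adjusted p = 0.0966 and 0.0559). Of these 12 calls, the 3 of Loxl4, Ddr2 and Leprel1 were kept in every alternative. The interaction with the drug was called for 5 of 61 genes, Loxl4, Mmp14, Trappc2, Lamb1 and Itgb1 (8.2%, against 4.56% of all genes), and none of the 5 calls was kept in every alternative.

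In Slc12a2-deficient cells, 30 of the 61 genes (49.2%) were lower and 10 (16.4%) higher, where 42.5% of all genes were called, 21.1% higher and 21.3% lower. Of the calls, 36 of 40 were kept in every alternative. Prelp and Lama1, among the genes lower, passed the low count filter through their wildtype levels, so their direction was built in. Among fibril organisers and collagen-binding matrix proteins, 7 of 10 were lower and 1 higher (median log2 -0.91). Postn fell from 564 ± 53.1 to 30.4 ± 1.94 CPM (log2 -4.22 with SE 0.07, edgeR adjusted p = 7.14e-15), and Bgn, a small leucine-rich proteoglycan, from 26.5 ± 1.27 to 2.66 ± 0.2103 CPM (edgeR adjusted p = 2.87e-13). Fn1, fibronectin, fell from 1248 ± 49.7 to 654 ± 101 CPM (log2 -0.93, edgeR adjusted p = 2.39e-07). The exception was Matn2, a matrilin, at 1.58 ± 0.345 CPM in wildtype and 3.24 ± 0.5902 CPM in deficient cells (log2 1.03, edgeR adjusted p = 0.000345).

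Enzymes changed in both directions between genotypes. Of 8 that act on procollagen outside the cell, 4 were lower (median log2 -0.41), among them Loxl1 (log2 -1.54), the procollagen C-proteinase Bmp1 (-0.70) and the N-proteinase Adamts3 (-1.90), with edgeR adjusted p of 3.69e-10, 1.12e-08 and 2.92e-06. The 2 higher were Loxl4 (log2 0.57, edgeR adjusted p = 1.23e-05) and Pcolce (0.19, edgeR adjusted p = 0.0218, and 0.0851 without wildtype library 3). In the endoplasmic reticulum list, 8 of 17 were lower and 3 higher (median log2 -0.12). The lysyl hydroxylases went apart, with Plod1 lower (log2 -0.54, edgeR adjusted p = 4.46e-07) and Plod2 higher (0.34, edgeR adjusted p = 0.000108). Lepre1, a prolyl 3-hydroxylase, and Colgalt1, which adds galactose to hydroxylysine, were lower (log2 -0.51 and -0.48). Among 7 receptors 4 were lower (median log2 -0.23), led by Itga1, the collagen-binding integrin chain, from 14.3 ± 0.824 to 6.87 ± 1.33 CPM, and Cspg4, a proteoglycan that binds type VI collagen, from 688 ± 36.8 to 394 ± 55.2 CPM. Of 3 proteases, Mmp9 and Mmp14 were lower (log2 -0.63 and -0.53). Of 8 laminins, 3 were lower and 3 higher (median log2 -0.09), with log2 changes of -1.14 for Lama2 and 0.56 for Lama3. Of 8 secretion genes, 2 were lower and 1 higher, each by at most 0.25.

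Col6a1 and Col6a2 are neighbours in the annotation of the count tables, on the same strand of the same scaffold with 80369 bases and no other gene between them, and Col18a1 lies 281924 bases from Col6a1 with 4 genes between. As given above, Col18a1 rose with cytochalasin D, and the type VI chains rose with apoptotic cells and were lower in deficient cells. No collagen had exons that overlap those of another named gene. Over the 6 group means, the 5 genes with levels most like those of Col6a1, by Pearson correlation of log2(CPM + 0.5) among 10437 genes with a mean of at least 4 CPM, were Tmco6 (0.9998), Fbl (0.9958), Sf3b5 (0.9939), LOC100757684 (0.9926) and Socs3 (0.9920). Col6a2 stood at rank 14 with 0.9842. These values describe 6 points from tables scaled separately, which share libraries within each group, and carry no test.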

How the data were processed

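The deposited values are unnormalised fragment counts for each gene name. Per the file headers, featureCounts 1.5.0 counted pairs with both ends aligned over exons, without a strand option, on alignments made with STAR. Exonic length is the other deposited column used, per the file headers, for CPM per kilobase. DESeq2 and FastQC are also named in the submitters' processing notes. Neither the STAR version nor the genome build is stated there. Models of Col12a1 and Col6a3 lie on 2 scaffolds.

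A row without a gene name, with 0.0249% to 0.0445% of counts in the first experiment and 1.13% to 1.65% in the second, was left out. The 2 experiments were fitted separately in edgeR 4.0.16 under R 4.3.3 (TMM factors, filterByExpr with minimum count 10 and total 15, quasi-likelihood F test on group). Calls are Benjamini-Hochberg adjusted p under 0.05 over all genes tested, 13106 and 13050. Membership used unscaled CPM, and all other CPM are TMM-scaled. Biological coefficients of variation were 7.04% and 6.06%. Intervals are 95%, from the SE and the t quantile at the residual degrees of freedom, and floors of 3 counts cover counting error only. Scripts were tested on simulated data.

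Alternatives were DESeq2 1.42.0, limma-voom (limma 3.58.1), other size factors, filters and thresholds, each library left out and replicate blocks. Removing 3 libraries and each library's gene length trend were added after seeing the data. The members and the 7 gene lists were chosen with earlier results of these data known. Library values are given for the 10 collagens with the highest CPM per kilobase and for called collagens without overlap, and other genes for the largest called changes per list. The text names a subset of the latter. Some list results are not reported here.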

Additional observations from a re-analysis of the deposited data

Results flagged for a closer look

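Single libraries stood away from their group in 5 of 96 cases, from 16 collagens in 6 groups of 4 libraries. Chance alone marks about 1 in 20 groups by this criterion. Col27a1 was at 72.4 CPM in apoptotic cell library 3, against 64.1 to 64.7 CPM in the other 3. Col17a1 was at 7.22 CPM in Slc12a2-deficient library 2, against 4.26 to 4.72 CPM in the others, and Col11a2 was at 1.56 CPM in wildtype library 2, against 0.589 to 0.715 CPM. Among scarce chains, Col5a3 was at 0.977 CPM in deficient library 4, against 0.638 to 0.656 CPM, and Col6a3 at 0.216 CPM in deficient library 3, against 0.0729 to 0.0888 CPM.

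The effect of apoptotic cells differed between phagocytes with and without cytochalasin D for 4 collagens, by a test of the difference itself. On the log2 scale the effect with the drug minus that without it was -0.53 for Col6a1, -0.49 for Col6a2, -0.46 for Col7a1 and -0.72 for Col27a1. The change in Col6a1 and Col6a2 came with a rise of 0.49 and 0.45 without the drug and changes of -0.04 and -0.05 with it. For Col7a1 the changes were 0.11 without the drug and -0.35 with it, and for Col27a1 0.33 and -0.39.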

How the results depend on the processing

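Of 33 calls of collagens in 6 comparisons, 29 were kept in every alternative that could be fitted, 4 were lost in at least 1 and none changed direction. These calls, and the counts that follow, include Col4a1 between genotypes and Col9a1 with the drug in co-culture. Both differences were built into the entry of the gene, so their being kept or lost is no support. The same holds between genotypes for Col3a1 and Col6a3, which were tested through their wildtype levels. The count for apoptotic cells under cytochalasin D was 2, and it was 1 when only the 8 libraries compared were fitted and 1 without the 3 libraries that stood apart, in both cases with Col7a1 left. With single libraries left out, that count was 1 to 2, and the other counts were 2 to 3 (apoptotic cells), 5 to 6 (cytochalasin D), 6 to 7 (cytochalasin D in co-culture), 4 in each case (difference between effects) and 12 to 13 (genotype). A filter of 1 CPM in 4 libraries removed Col4a1 and Col6a3 from the genotype test, leaving 10, and removal of the gene length trend added Col5a2 to the rises with apoptotic cells, giving 4. Of 116 calls of genes from the 7 lists, 82 were kept in every alternative, 34 were lost in at least 1 and none changed direction. A threshold of 1 CPM for membership kept 15 genes. Of 24 same-numbered pairs in the first experiment, 3 deviated together by a correlation over 0.1 (range -0.056 to 0.227). They were cytochalasin D and both agents in libraries 1 (0.206) and 4 (0.227), and control and both agents in library 4 (0.189). Each held at least 1 of the 3 libraries that stood apart. Pairs with different numbers were not set beside them, so whether structure was shared by replicate number was not tested. With a replicate block the counts were 3, 5, 2, 7 and 4, the same genes as without it, and a block on library number in the second experiment gave 13, adding Col8a1. For each lost call other than through fewer libraries or genes, the cause was not tested. Depth limits the 6 collagens with low counts. For apoptotic cells against control, where all of them but Col4a1 were tested, their log2 changes carried standard errors of up to 0.74. The labels call the libraries of a group biological replicates without saying what was separate. The p values thus measure the spread between these samples of LR73 cells. In the second experiment, genotype cannot be told apart from any other difference between the wildtype and the deficient cells.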
